A study of Homo sapiens with 4 samples.

Results

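Pulses of the kind used in electrochemotherapy (ECT) were set directly against pulses of the kind used in electrogene therapy (EGT) in SK-MEL28, an established human melanoma cell line. The measure was the difference of the log2 ratio (exposed/untreated) between the arrays titled ECT and those titled EGT, taken for each oligonucleotide with a value on all 4 arrays. Of the 3048 oligonucleotides on the array 1164 met this rule. A single gene symbol was paired with 1000 of them, for 960 of the 1892 genes spotted. The pair of ECT arrays measured 1176 oligonucleotides and the pair of EGT arrays 1327.
Cells in suspension received 8 ECT pulses of 100 μs at 1300 V/cm or 8 EGT pulses of 5000 μs at 600 V/cm, and their RNA was isolated after 16 h. Each pulse type had 2 arrays. An untreated aliquot of the same cells was labelled with Cy3 and the exposed cells with Cy5 on every array, so a dye effect of equal size on all 4 arrays drops out of the difference between pulse types. Cisplatin is named in the source labels of both EGT arrays and ECT array 2, and not in that of ECT array 1. The study's text names no drug for these cells, and any effect of the drug was not tested. No label states if replicate arrays came from separate cultures, so p-values measure the spread between these arrays, which may be technical.
The field was 2.17-fold stronger in ECT pulses, and each pulse was 50-fold longer in EGT pulses. Summed over the 8 pulses, cells spent 0.8 ms in the field with ECT and 40 ms with EGT, and the product of squared field and total duration was 10.7-fold higher for EGT. Field and duration changed together and in opposite directions, and no group had one of them changed alone. The share of either in a difference between the pulse types therefore cannot be told apart. The study's clonogenic assay also found lower survival after EGT than after ECT pulses, and the part of cell loss in the differences was not tested.
As background, an electric pulse of sufficient strength makes the plasma membrane transiently permeable. The field decides which part of the membrane is permeabilised, and longer pulses also move charged molecules such as DNA towards and through it. Exposed cells lose and take up ions, spend ATP on restoring their gradients and can meet heat and oxidants, which is why chaperones, ion transporters, redox enzymes and genes of the cell cycle are of interest here.

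Arrays of the same pulse type were not the closest to each other. The median absolute difference of the log2 ratio over the 1164 oligonucleotides was 0.182 for the 2 ECT arrays and 0.163 for the 2 EGT arrays. Across pulse types it was 0.193 between ECT array 1 and EGT array 1, and 0.171 between ECT array 2 and EGT array 2. The smallest values of all 6 pairs also lay across pulse types, at 0.138 between ECT array 1 and EGT array 2 and at 0.143 between ECT array 2 and EGT array 1. Differences over 1.5-fold were found for 7.82% of oligonucleotides in the ECT pair and 3.69% in the EGT pair, against 3.35% and 2.06% for the closest pairs across pulse types.

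**Figure D1:**
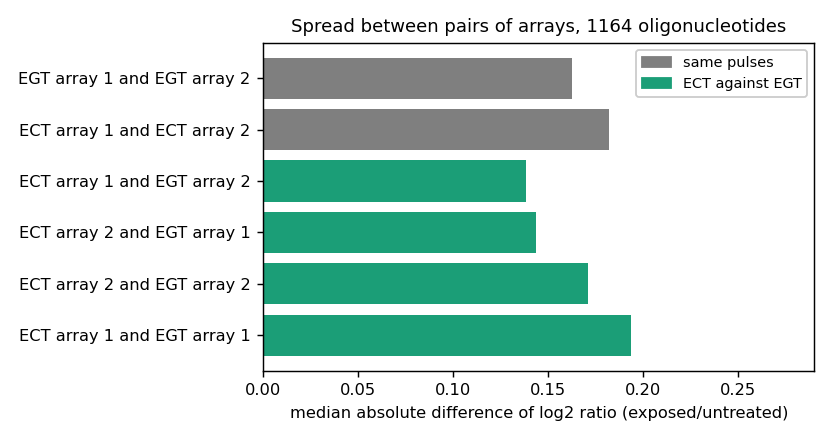
Median absolute difference of the log2 ratio (exposed/untreated) between each pair of arrays, over 1164 oligonucleotides. The 2 grey bars are pairs with the same pulses (0.163 and 0.182), and 2 of the 4 green bars, pairs of ECT with EGT, are shorter (0.138 and 0.143).

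On the log2 scale the mean SD of replicate arrays was 0.175 with ECT and 0.148 with EGT pulses. The standard error of the difference between pulse types had a median of 0.158, and the half-width of its 95% interval a median of 0.383, which is 1.30-fold. For 797 of 1164 oligonucleotides (68.5%) that interval lay wholly inside 1.5-fold in either direction. For the others a difference of that size in at least one direction was within the interval.
The spread was smallest at low signal. In the dimmest of 3 equal groups of 388 oligonucleotides the mean SD was 0.118 (ECT) and 0.109 (EGT), in the middle group 0.207 and 0.160, and in the brightest 0.199 and 0.175. The offset added to both channels draws the ratios of dim spots towards 0, and with them any difference. All oligonucleotides with an unadjusted p under 0.05 for the difference were in the middle (12) or the brightest group (19).

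No gene passed the test of ECT against EGT pulses. With limma, 0 of 1164 oligonucleotides had an adjusted p under 0.05, and the smallest adjusted p was 0.988. An unadjusted p under 0.05 was found for 31 (2.66%), of which 17 were higher after ECT (1.46%) and 14 lower (1.20%). The 2.66% is below the share of 0.05 expected at this threshold when no oligonucleotide differs. The median difference was -0.01, the median absolute difference 0.105 and the 90th percentile 0.280. The ECT mean was above the EGT mean for 557 oligonucleotides (47.9%) and below it for 607 (52.1%). With 2 arrays against 2, an exact permutation test of a single gene cannot go below a two-sided p of 0.333.
Arrays that do not overlap have a two-sided p of 0.333 in the exact permutation test of 2 arrays against 2. This is also the share expected when the pulse types do not differ, and the share found was not above it. Lack of overlap by itself therefore does not show a separation of the pulse types. Both ECT arrays lay above both EGT arrays for 155 oligonucleotides (13.3%) and below them for 168 (14.4%), together 323 (27.7%). Centring each array on its median in place of loess changed that split to 224 above and 125 below. Every ECT array was at least 1.5-fold above every EGT array for 1 oligonucleotide (0.0859%), of CNOT9, and at least 1.5-fold below for 0. The mean difference reached 1.5-fold in either direction for 2 (0.172%), CNOT9 and NQO1.

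**Figure D2:**
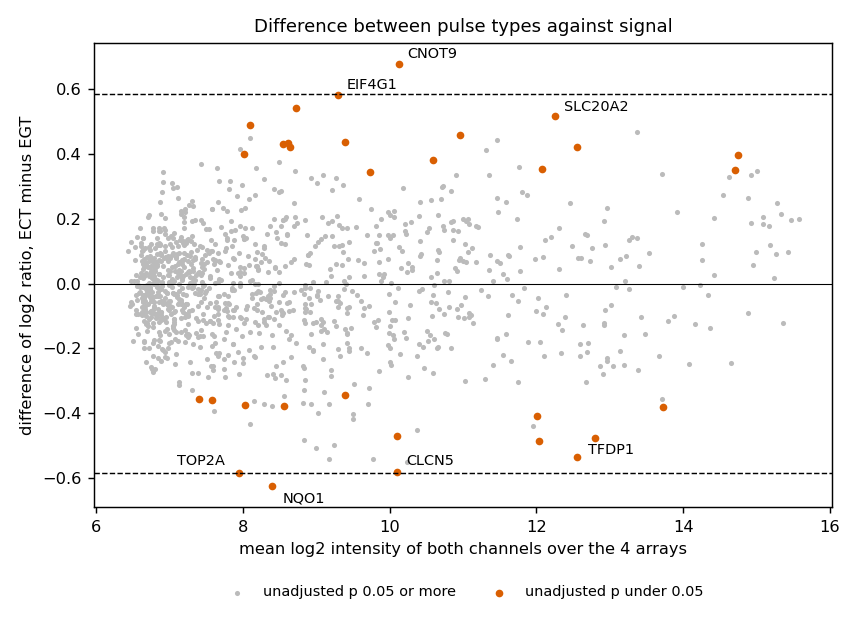
Difference of the log2 ratio (ECT minus EGT) against the mean log2 intensity of both channels, 1 point per oligonucleotide (n = 1164). Dashed lines mark 1.5-fold; orange points are the 31 with an unadjusted p under 0.05, and only CNOT9 (0.68) and NQO1 (-0.63) lie past the lines.

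Among genes whose arrays did not overlap, CNOT9, EIF4G1 and SLC20A2 had the largest differences with ECT above EGT pulses. The first was CNOT9, on chromosome 2, a subunit of the CCR4-NOT complex that shortens the poly(A) tails of mRNA. Its log2 ratio was 0.27 and 0.26 after ECT pulses and -0.35 and -0.48 after EGT pulses. The ECT arrays were above the untreated level and the EGT arrays below it, and the arrays of a pulse type lay close together. The difference was 0.68 (standard error 0.14, 95% interval 0.34 to 1.01), with an adjusted p of 0.988 from limma.
EIF4G1, the scaffold of the complex that brings ribosomes to the mRNA cap, was at 0.54 and 0.14 after ECT and at -0.26 and -0.23 after EGT. The difference was 0.58 (standard error 0.17). Both ECT arrays were above the untreated level and both EGT arrays below it, but the ECT arrays differed from each other by more than the EGT arrays did. SLC20A2, a sodium-dependent phosphate transporter, was at -0.08 and 0.12 after ECT and -0.51 and -0.48 after EGT. Here the ECT arrays lay near the untreated level and the EGT arrays below it. An oligonucleotide without a gene symbol, VM_H200008364, was at 0.36 and 0.25 after ECT and -0.28 and -0.20 after EGT, and a further one, VM_H300022227, at 0.38 and 0.11 against -0.29 and -0.14.
The chromatin remodelling subunit SMARCD1 had 2 equal ECT values, 0.27 and 0.27, over EGT values of -0.11 and -0.21. PRKCD, the delta form of protein kinase C, was at 0.14 and 0.25 after ECT and -0.22 and -0.24 after EGT. CRABP2, which carries retinoic acid to its nuclear receptors, was above the untreated level on all 4 arrays, at 0.66 and 0.58 after ECT and 0.14 and 0.30 after EGT. The pulse types did not overlap, but their signs were the same.
GTF2E1, a subunit of the general transcription factor TFIIE, was at 0.76 and 0.35 against 0.24 and -0.10. THBS3, a thrombospondin of the extracellular matrix, was at 0.68 and 0.27 against 0.08 and 0.01. In both genes ECT array 1 stood well above the other arrays. The others of the 12 largest differences in this direction were BCKDHA, a subunit of the branched-chain keto acid dehydrogenase (0.40), KRT1, a keratin of differentiating epidermis (0.47, and 0.24 to 0.70 with 1 array left out), and CD8A and CD1B, of T cells and of lipid antigen presentation (0.44 and 0.42).

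With ECT below EGT pulses, the largest differences among non-overlapping genes were those of NQO1, TOP2A, CLCN5 and TFDP1. NQO1, on chromosome 16, encodes a quinone reductase of the oxidant response. It was at -0.90 and -0.60 after ECT and at -0.03 and -0.22 after EGT. The EGT arrays lay close to the untreated level and the ECT arrays well below it, and the groups did not overlap. The difference was -0.63 (standard error 0.17, 95% interval -1.03 to -0.22), with an adjusted p of 0.988 from limma.
TOP2A, the topoisomerase that disentangles DNA before mitosis, was at -0.06 and -0.32 after ECT and at 0.33 and 0.46 after EGT, a difference of -0.58. CLCN5, a chloride/proton exchanger of endosomes, was at -0.24 and -0.33 against 0.24 and 0.35, also -0.58. Both genes were below the untreated level on the ECT arrays and above it on the EGT arrays. TFDP1, the partner that E2F factors need to bind DNA, was at -0.52 and -0.63 after ECT and at 0.06 and -0.14 after EGT, a difference of -0.54 (standard error 0.15). Its pattern was like that of NQO1, with the EGT arrays near 0.
RAD9A, part of the clamp that signals DNA damage, was at -0.39 and -0.31 against 0.18 and 0.05, and the potassium channel KCNN3 at -0.43 and -0.27 against 0.00 and 0.12. CLK2, a kinase of splicing factors, was at -0.35 and -0.54 against -0.05 and 0.13. In these 3 genes the arrays of a pulse type lay closer together than the pulse types did. CEACAM1, a cell adhesion molecule, was at -0.12 and -0.22 against 0.26 and 0.35. A second oligonucleotide of CEACAM1 did not show this, with -0.14 and -0.05 after ECT and -0.12 and -0.10 after EGT, a difference of 0.02.
The intermediate filament vimentin, VIM, was above the untreated level everywhere, at 0.43 and 0.06 after ECT and 0.47 and 0.92 after EGT. CDK2AP1, which binds CDK2, rested on ECT array 1, with -0.68 and 0.06 against 0.11 and 0.23. The remaining genes of the 12 were LRRC32, which holds latent TGF-beta at the cell surface (-0.50, and -0.76 to -0.24 with 1 array left out), and POLR2B, the second largest subunit of RNA polymerase II (-0.44, and -0.63 to -0.25).

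**Figure D3:**
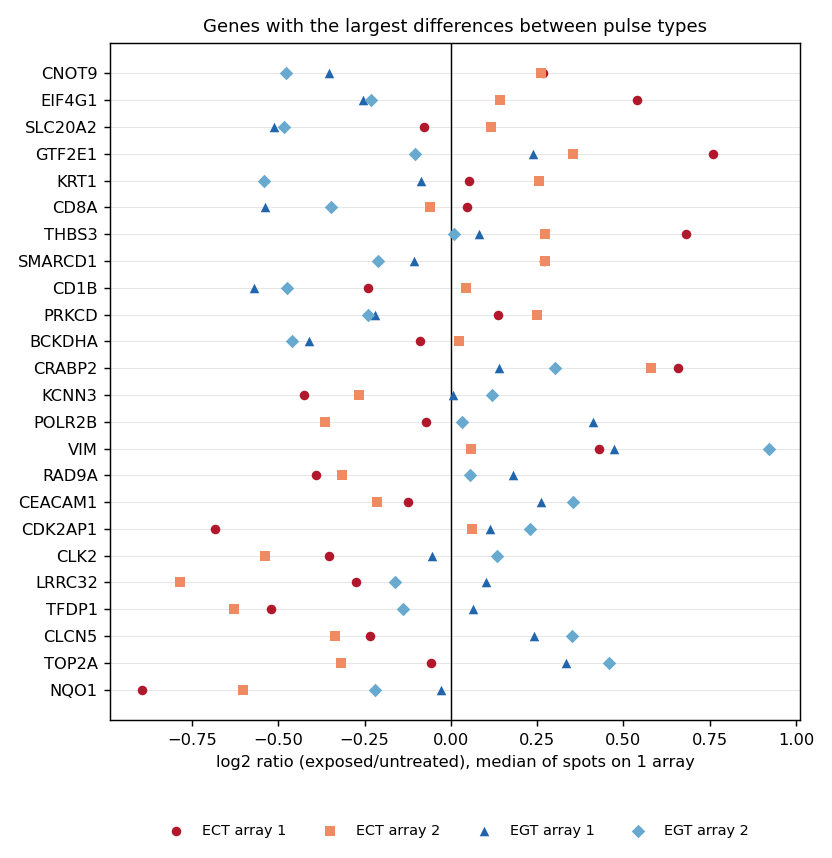
Log2 ratio (exposed/untreated) on each of the 4 arrays for the 12 genes with the largest differences in each direction among oligonucleotides whose arrays did not overlap between pulse types. ECT arrays are red and orange, EGT arrays blue; these genes were chosen for their separation, and none passed the adjusted threshold of limma.

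These counts depended on single arrays. Without ECT array 2 the count at an unadjusted p under 0.05 was 73, without ECT array 1 it was 45, and without EGT array 1 or 2 it was 13 or 15, with 0 adjusted calls in each. Under median centring, with the mean of spots and in the authors' normalized values, CNOT9 no longer had every ECT array at least 1.5-fold above every EGT array.

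The channels were also read separately, untreated cells being in Cy3 and exposed cells in Cy5 on every array. Whether the untreated RNA came from 1 culture is not stated, and the part of labelling and hybridisation of each array in a single channel was not tested. From each channel's difference between ECT and EGT arrays, the median difference of that channel over the shared oligonucleotides was subtracted. After this step CNOT9 was higher by 0.94 on the ECT arrays in the channel of exposed cells and by 0.24 in the channel of untreated cells. For TFDP1 the exposed channel differed by -0.50 and the untreated channel by 0.05, and for NQO1 by -0.63 and -0.06. In these 3 genes the exposed channel differed more between the pulse types than the untreated channel. They were chosen for a large difference of the ratio of exposed over untreated, so a gap between the channels follows from the choice. It is no separate sign of a change in the exposed cells. For CRABP2 the order was the opposite, with -0.42 in the untreated channel and -0.11 in the exposed channel, and the EGT arrays read brighter in both. For CLK2 the untreated channel was higher by 0.25 on the ECT arrays and the exposed channel was at -0.14.
Tested by itself, neither channel had an oligonucleotide past the adjusted threshold of limma (0 in each). An unadjusted p under 0.05 was found for 0 in the untreated channel and for 18 in the exposed channel (1.55%), all lower on the ECT arrays. The direction depended on the scaling. In the main setting the median differences over the shared oligonucleotides were -0.182 (untreated) and -0.174 (exposed). These are scaled values and do not show that the ECT arrays were dimmer. With each array centred on the shared oligonucleotides instead, the median differences were 0.043 and 0.069. An unadjusted p under 0.05 from limma was then found for 1 and 12, and 9 of the 12 were higher on the ECT arrays.

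No difference between the pulse types passed for chaperones. Heat shock proteins refold damaged proteins, and their genes are switched on by heat shock factors, which bind inverted repeats of a short GAA motif in promoters. Of 23 genes of this list on the array, 16 were measured on all 4 arrays by 18 oligonucleotides. Of these, 11 were higher after ECT and 7 lower, with a median difference of 0.03, against -0.01 over all oligonucleotides. None had an unadjusted p under 0.05 in limma, where 2.66% of all oligonucleotides did. No oligonucleotide had both ECT arrays above both EGT arrays (13.3% of all), and 2 had them below (14.4% of all).
HSPA1B encodes an inducible HSP70 chaperone. Its first oligonucleotide was at 0.67 and 0.74 after ECT and at 0.52 and 0.69 after EGT, and a second at 0.26 and 0.59 against 0.44 and 0.34. All 8 values were above the untreated level, and the pulse types overlapped in both. The differences were 0.10 (95% interval -0.25 to 0.45) and 0.03 (95% interval -0.37 to 0.43). With all spots kept in the background fit they were 0.33 and 0.21. The paralog HSPA1A is nearly identical and may bind the same oligonucleotides.
DNAJB1, a co-chaperone of HSP70, was at 0.61 and 0.36 after ECT and at 0.44 and 0.45 after EGT. HSP90AB1, the constitutive cytosolic HSP90, was at 0.77 and 0.24 against 0.02 and 0.45, and HSPA2, an HSP70 protein of the testis, at 0.73 and 0.31 against -0.06 and 0.66. These were the largest differences of the list, 0.27 for HSP90AB1 and 0.22 for HSPA2, and in both the arrays of each pulse type were further apart than the means. BAG1, a co-chaperone that also binds BCL2, had the lowest difference, -0.16.
The inverted repeat is shown for the 3 chaperone genes of the list that held it in the 250 bases before the transcription start, since heat shock factors are known to bind such repeats. Sequences are from RefSeq (GRCh38.p14, plus strand, which is the coding strand of each gene), and capitals mark GAANNTTC or TTCNNGAA.
HSPA1B, chr6:31827621-31827652, 117 to 86 bases before the start: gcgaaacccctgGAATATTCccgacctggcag
DNAJA1, chr9:33025063-33025094, 210 to 179 bases before the start: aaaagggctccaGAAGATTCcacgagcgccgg
SERPINH1, chr11:75562165-75562201, 88 to 52 bases before the start: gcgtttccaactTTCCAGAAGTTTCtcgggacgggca
In SERPINH1 a match of each kind overlaps, giving 3 alternating units. Of 14 list genes with a promoter in the reference, 3 held GAANNTTC or TTCNNGAA (21.4%), against 3208 of 27305 promoters (11.7%). The 3-unit form, GAANNTTCNNGAA or TTCNNGAANNTTC, was in 1 of the 14 (7.14%) and in 120 of all (0.439%). A match is a description of the letters, not a site shown to be bound. SERPINH1, a collagen chaperone, and DNAJA1, a co-chaperone of HSP70, differed between the pulse types by 0.05 and 0.01, and HSPA1B as given above. The 3 genes that hold the repeat thus had intervals of the difference that spanned 0.

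**Figure D4:**
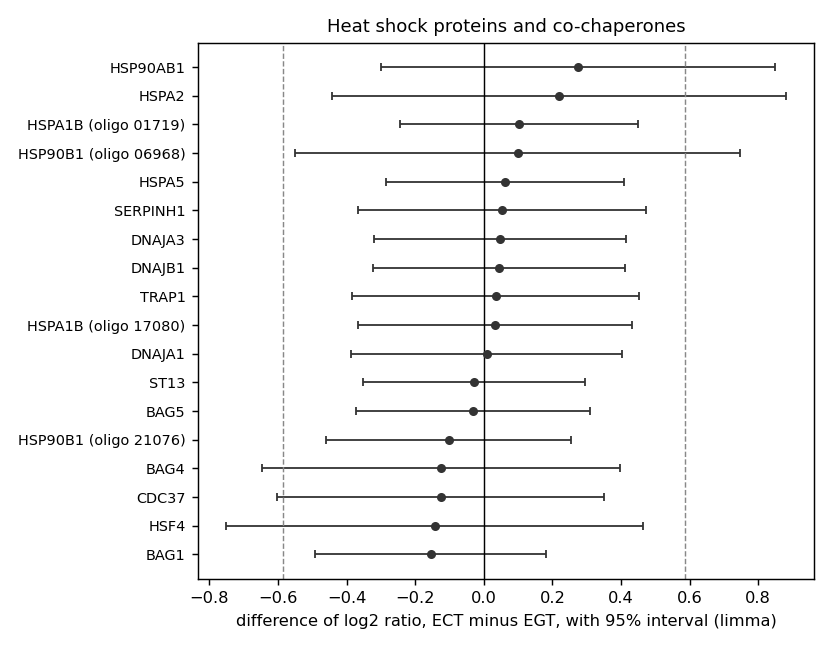
Difference of the log2 ratio (ECT minus EGT) with its 95% interval from limma for the 18 oligonucleotides of heat shock proteins and co-chaperones. Dashed lines mark 1.5-fold; every interval spans 0, and the differences run from -0.16 to 0.27.

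For no gene that the study's article lists as changed by both pulse types did the ECT and EGT arrays stand apart. They and the lists that follow were chosen by the authors on these same arrays, so their values are given as a description. The 6 genes listed for both with a symbol were measured on all 4 arrays by 10 oligonucleotides, matched by symbol or accession, with differences from -0.54 to 0.21 and a median absolute difference of 0.112, against 0.105 over all oligonucleotides. The arrays overlapped in all 10. RPL31, of the large subunit of the ribosome, was at -1.46 and -0.87 after ECT and at -0.76 and -1.27 after EGT. It was far below the untreated level on all 4 arrays, and the pulse types overlapped, with a difference of -0.15 (95% interval -0.78 to 0.48). CDC25C, a phosphatase that starts mitosis, was at 0.60 and 0.73 against 0.66 and 1.08, and cyclin F, CCNF, at 0.80 and 0.63 against 0.67 and 0.83. CD28, a co-receptor of T cells, was at -0.72 and -0.92 against -0.92 and -0.58. Histone H4 was matched through its accession to 4 oligonucleotides of H4C16. The lowest was at -0.88 and -0.55 after ECT and at 0.23 and -0.57 after EGT, a difference of -0.54 (95% interval -1.22 to 0.14, and -0.94 to -0.14 with 1 array left out), in which EGT array 1 stood apart. The others differed by -0.01, 0.12 and 0.21, so the 4 did not share a direction. For CCNF the 95% interval, -0.40 to 0.32, lay inside 1.5-fold, and for CDC25C, -0.65 to 0.24, it did not.
Of the 26 genes listed for ECT pulses alone, 24 were measured by 31 oligonucleotides, of which 20 were lower and 11 higher after ECT. The arrays did not overlap for 9 of them, against 27.7% of all oligonucleotides, namely those of NQO1, TFDP1, CRABP2, GLIPR1 and IL6 and 4 oligonucleotides annotated to CGB7, a chorionic gonadotropin gene with near-identical copies. Of the 31, 3 had an unadjusted p under 0.05 in limma (NQO1, TFDP1 and CRABP2), where 2.66% of all oligonucleotides did. GLIPR1 encodes a secreted protein related to plant pathogenesis proteins and IL6 a cytokine, and they differed by 0.38 and 0.19. IL6 depended on the processing, since its difference was 0.74 with the mean of spots and 0.85 in the authors' normalized values. The article's methods also name the median of spots, and the cause of this change was not tested. Of the 18 genes listed for EGT pulses alone, 12 were measured by 14 oligonucleotides. None of the 14 had an unadjusted p under 0.05 in limma (2.66% of all), and 11 were higher and 3 lower after ECT. In 2 the arrays did not overlap (27.7% of all), 1 of TP53I3, a p53-induced oxidoreductase (0.11), and 1 of CDK2AP2 (0.29). The median absolute difference was 0.195 for the ECT list and 0.201 for the EGT list, against 0.105 over all oligonucleotides.
RET, a receptor tyrosine kinase, showed how the array spread limited this comparison. Its values were -1.50 and -0.33 after ECT and -0.85 and -1.48 after EGT. The ECT arrays differed from each other by more than the largest mean difference of any gene (0.68), with a 95% interval of the difference from -0.73 to 1.23. TIMP2, an inhibitor of metalloproteinases, was at -0.77 and -0.10 against -0.67 and -0.84, with ECT array 2 standing apart.

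Gene groups moved little against each other. Their counts stand beside 2.66% of all oligonucleotides with an unadjusted p under 0.05, 1.46% higher and 1.20% lower after ECT, and 27.7% without overlap of the arrays. Ribosomal proteins and translation factors had a median log2 ratio of -0.52 after ECT and -0.40 after EGT over 17 oligonucleotides, with 11 lower and 6 higher after ECT and a median difference of -0.12. The array medians were -0.64 and -0.21 for ECT and -0.21 and -0.34 for EGT, so the pulse types overlapped. EIF4G1 was the sole member with an unadjusted p under 0.05 in limma. RPL7 was at -1.50 and -0.30 after ECT and -0.19 and -0.81 after EGT, and the elongation factor EEF1A1, by 1 of its 2 oligonucleotides, at 0.00 and -0.74 against -0.36 and 0.72. The other oligonucleotide of EEF1A1 was below the untreated level on all 4 arrays.
In the group of ion channels and pumps, which also held solute carriers, 21 of 29 oligonucleotides were lower after ECT and 8 higher, with a median difference of -0.09. In limma 3 lower ones had an unadjusted p under 0.05, CLCN5, KCNN3 and the transporter SLC43A3 (-0.38), as did 1 higher one, SLC20A2, against 1.20% and 1.46% of all oligonucleotides. In 10 of the 29 the arrays did not overlap, 8 lower and 2 higher, against 14.4% and 13.3% of all. The array medians were -0.07 and -0.04 after ECT and 0.02 and 0.10 after EGT. Of 9 oligonucleotides of calcium-binding proteins, annexins, S100 proteins and calpains, 8 were lower after ECT, with a median difference of -0.07 and none at an unadjusted p under 0.05. Their lowest were the calpain CAPN6 (-0.27), the calcium/calmodulin-dependent kinase CAMK1 (-0.25) and S100B (-0.16).
Cell cycle genes were divided. Of 24 oligonucleotides of the RB and E2F group, which govern entry into S phase, 16 were lower and 8 higher after ECT, with a median difference of -0.04 and TFDP1 alone at an unadjusted p under 0.05. E2F3, an E2F factor, lay on the other side at 0.42 (0.13 to 0.70 with 1 array left out), with 0.87 and 0.31 after ECT and 0.03 and 0.32 after EGT. The 10 genes of G2 and mitosis had 5 on each side. AURKB, a mitotic kinase, was at 1.01 and 0.48 against 0.06 and 0.76, and BIRC5, survivin, at 0.07 and 0.07 against -0.25 and -0.07. Of 22 genes of DNA repair and the damage checkpoint, 15 were lower after ECT and 7 higher, TOP2A and RAD9A with an unadjusted p under 0.05, against 1.20% lower over all oligonucleotides. RAD54B, of homologous recombination, differed by -0.28 with an interval from -0.99 to 0.42.
Redox and xenobiotic enzymes had 13 of 22 oligonucleotides higher after ECT and a median difference of 0.03, with NQO1 standing alone at the low end. The next were the cytochromes P450 CYP2A7 (0.35) and CYP11A1 (-0.33), the latter at -0.10 and -0.15 after ECT and 0.25 and 0.16 after EGT. The 22 cytokines and chemokines had 13 higher, and 5 with both ECT arrays above both EGT arrays against 13.3% of all oligonucleotides. Their largest differences were those of IL17A (0.33), the OX40 ligand TNFSF4 (0.29) and the monocyte chemoattractant CCL2 (0.25), each with an interval that spanned 0. Caspases, BCL2 proteins and death adaptors had 12 of 20 higher, with CIDEB, an inducer of cell death (-0.30), DAXX, a death-domain adaptor (0.26), and CASP1, an inflammatory caspase (0.20), furthest out.
Of p53 and its targets, 6 of 8 oligonucleotides were higher after ECT (median 0.09), led by PPM1D, a phosphatase of p53 signalling (0.26), the other oligonucleotide of TP53I3 (0.26) and EI24 (0.14). Receptor tyrosine kinases had 11 of 15 higher (median 0.06), with NTRK2 (0.30) and DDR1 (0.23) beside RET. Signalling genes of the RAS, PI3K and JAK-STAT pathways had 10 of 17 lower, among them AKT2 (-0.37) and MAP3K14 (-0.25), while GSK3A was at 0.25. Immediate early genes had 4 of 7 lower, with ID3 and FOSL1 at -0.28 and DUSP5, a phosphatase of ERK, at 0.21. None of these groups had a member with an unadjusted p under 0.05 in limma.
Proteasome and ubiquitin enzymes had 16 of 25 lower after ECT (median -0.07), the lowest being ubiquitin itself, UBB (-0.40), and the core subunits PSMA2 (-0.37) and PSMB6 (-0.36). These rested on ECT array 1, at -1.20, -0.99 and -0.64, against -0.10, 0.32 and -0.04 on ECT array 2. The array medians of the group were -0.16 and -0.05 after ECT and -0.02 and -0.07 after EGT, which overlapped. Adhesion and matrix genes had 24 of 45 higher, among them THBS3 (0.43), their sole member with an unadjusted p under 0.05 in limma, and ITGB3BP, which binds the tail of integrin beta 3, at 0.33, and cytoskeletal genes 15 of 26 lower. The 6 histone oligonucleotides had 3 on each side, and 4 of them carry the symbol H4C16, one of many near-identical histone genes. These are the 4 given above, and the signals of single H4 genes cannot be told apart. H3-3A was at -0.31.

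**Figure D5:**
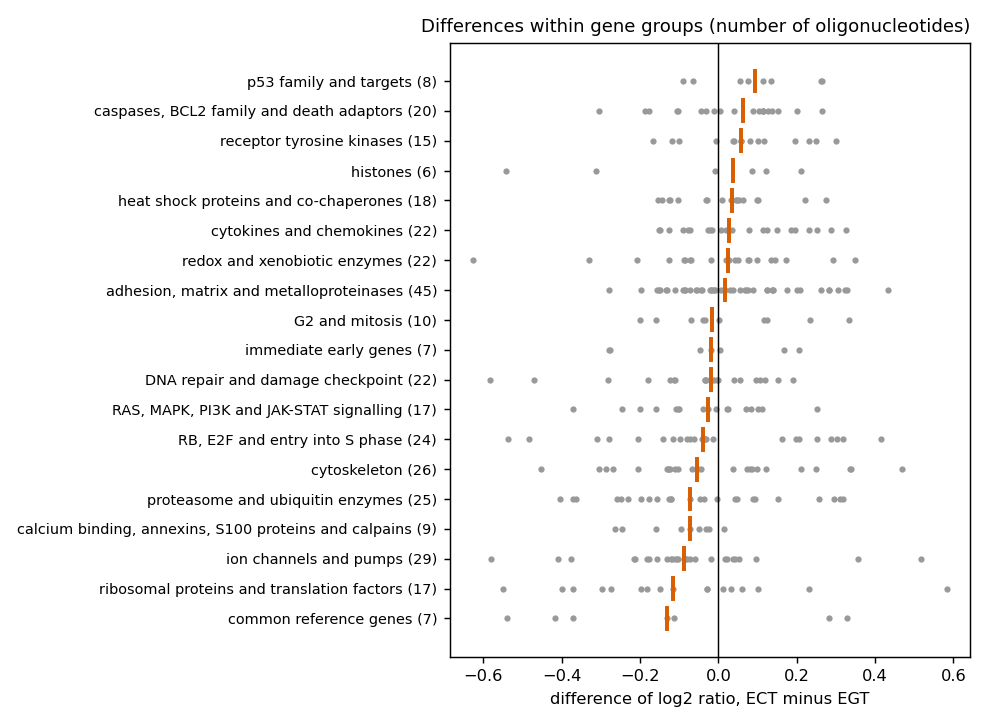
Difference of the log2 ratio (ECT minus EGT) for the oligonucleotides of 19 gene groups, 1 grey point each, with the median of each group as an orange bar. Medians run from -0.13 (common reference genes) to 0.09 (p53 family and targets).

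Reference and marker genes were read in the same way, and whether the reference genes were stable here was not tested. Of 7 genes often used as references for expression, 5 were lower and 2 higher after ECT, with a median difference of -0.13. They ran from -0.54 to 0.33, and the lowest, PPIA, is on the article's list for ECT pulses alone. GAPDH was at -0.68 and -0.27 after ECT and -0.23 and 0.02 after EGT, PPIA, a prolyl isomerase, at -1.26 and -0.62 against -0.18 and -0.62, and B2M at -0.91 and 0.09 against 0.17 and -0.15. ECT array 1 was the lowest for all 3 genes.
Of 9 melanocyte markers on the array, 7 were measured on all 4 arrays, and GPR143 and KIT on none. Of the 7, 6 were lower after ECT, against 52.1% of all oligonucleotides, with a median difference of -0.15. MLANA, a melanosome protein, had an unadjusted p under 0.05 in limma, where 2.66% of all oligonucleotides did. It was at -0.17 and -0.24 after ECT and 0.09 and 0.22 after EGT. Tyrosinase, TYR, was at 0.00 and -0.13 against -0.04 and 0.34. Markers of other cell types also gave signal. Keratinocyte or epithelial markers were measured with 8 of 8 oligonucleotides, 6 higher after ECT (median 0.17). Lymphoid or blood markers were measured with 5 of 8, where CD4, CD5 and CD7 were measured on no array. Of the 5, 4 were lower after ECT and 1 higher. The higher one, CD8A (0.44), also had an unadjusted p under 0.05 in limma. KRT14 was at 0.01 and 0.40 against -0.20 and -0.06 by 1 oligonucleotide and at -0.52 and -0.23 against -0.27 and -0.23 by another, so the 2 differed in direction. Both fibroblast oligonucleotides and 2 of 3 endothelial ones were higher after ECT, none with an unadjusted p under 0.05. The part of cross-hybridisation in the signal of genes that a melanoma line should lack, such as CD8A, CD28 and KRT1, was not tested.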

How the data were processed

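Each of the 4 arrays compared exposed (Cy5) with untreated (Cy3) SK-MEL28 cells. The deposited scanner values are spot intensities and local backgrounds, not normalized. The deposited table holds the authors' log2 ratios after LOWESS and was used as an alternative. Fold-change or test columns were not used.
R 4.3.3, limma 3.58.1 and statmod 1.5.0 were used. On EGT array 1, 4 spots with a local background over 1000 distorted the background fit and were left out before normexp (offset 50). A spot was kept with both channels at least 2 times background and at most 65000, and a background SD of at most 0.3 of its intensity. Kept spots were 37.3% to 47.7% of 12788 per array. Loess had a span of 0.3 and 4 iterations. The value was the median of at least 2 kept spots, tested with lmFit and eBayes and Benjamini-Hochberg adjustment over 1164 oligonucleotides; differences are on the log2 scale and the number of arrays limits their precision. Values correlated with the authors' at r = 0.909 to 0.963 over oligonucleotides of an array.
The members, gene lists and the exclusion of the 4 spots were chosen with earlier results of these data known. Named genes are the 12 largest non-overlapping differences in each direction, the genes listed for both pulse types and up to 3 members of each gene list, the article's genes being matched by symbol or accession. Further genes were named after their values were seen, namely the oligonucleotides without a symbol, DNAJA1, SERPINH1, DNAJB1, GLIPR1, IL6, CDK2AP2, SLC43A3, CGB7 and second oligonucleotides. Symbols come from the array's annotation. The steps were run on simulated arrays with known changes, with array and spot noise set below that of these data. That run cannot show how large a change would be found here.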

Additional observations from a re-analysis of the deposited data

Results flagged for a closer look

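For 23 of the 98 oligonucleotides named in the text, both ECT arrays lay on one side of the untreated level and both EGT arrays on the other. Over all 1164 oligonucleotides measured on the 4 arrays this held for 74 (6.36%), 36 with ECT above and 38 with ECT below, and many of the named ones had been chosen for large separation. None of these differences had an adjusted p under 0.05 in limma.
With ECT above the untreated level and EGT below it, the differences were 0.68 for CNOT9, 0.58 for EIF4G1, 0.54 and 0.46 for VM_H200008364 and VM_H300022227, which have no gene symbol, 0.47 for KRT1, 0.43 for SMARCD1, 0.42 for PRKCD, 0.38 for PPP1R3A, 0.35 for WNT2, 0.34 for POU2F3, 0.34 for 1 oligonucleotide of KRT14, 0.33 for ITGB3BP and 0.23 for BIRC5. With ECT below and EGT above, they were -0.58 for TOP2A and for CLCN5, -0.48 for 1 oligonucleotide of CEACAM1, -0.47 for RAD9A, -0.44 for POLR2B, -0.41 for KCNN3, -0.36 for MLANA and for ZNF200, -0.35 for TAF9B and -0.33 for CYP11A1. The other oligonucleotides of KRT14 and CEACAM1 did not show the pattern.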

How the results depend on the processing

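No oligonucleotide had an adjusted p under 0.05 from limma in any of the settings run, the array number as a replicate block included (0), and the crossed block (0), which was added after seeing the data and pairs unlike numbers across pulse types. No label states what arrays of the same number share. Over oligonucleotides, their deviations from the group means correlated at -0.444. The count at an unadjusted p under 0.05 (31) was 20 with the replicate block, 66 with the crossed block, 20 with no background correction, 15 in the authors' values, 100 of 3048 with no filter on spots and 13 to 73 when 1 array was left out, which in the group of 1 assumes the spread of the other. Of the 31, all kept their sign in every setting. In part of the settings this could not be otherwise. The arrays of the pulse types did not overlap for any of the 31, so leaving out 1 array could not reverse a sign. A block, or eBayes with a trend, leaves the difference itself unchanged. An unadjusted p under 0.05 from limma was kept by 10 in the authors' values and by 13 with the replicate block. Non-overlapping arrays (323) numbered 877 with no filter on spots and 679 to 789 with 1 array left out, where fewer arrays can overlap, and separation by 1.5-fold on every array (1) was 0 with median centring, with the mean of spots and in the authors' values, and 4 to 25 with 1 array left out. With no filter on spots the mean SD between arrays was 0.107 for ECT and 0.0919 for EGT, a setting that keeps dim spots. In the untreated channel 1 oligonucleotide had an unadjusted p under 0.05 after centring on the shared oligonucleotides, a setting added after seeing the data.
Of 1663 values of the 98 named differences under other settings, 1615 kept their direction. Part of these could not reverse, namely those with a changed block or eBayes fit. Nor could those with 1 array left out where the arrays did not overlap. The differences that reversed in some setting had intervals that spanned 0. CD28 was at 0.10 and CCNF at 0.023 with the mean of spots, and at 0.092 and 0.008 in the authors' values. With all spots kept in the background fit CCNF was at 0.17, RET at -0.0049 and the second oligonucleotide of CEACAM1 at -0.035. Other differences kept their direction in that setting but changed in size. RPL31 moved from -0.15 to -0.46, TIMP2 from 0.32 to 0.063 and DNAJB1 from 0.04 to 0.21. The oligonucleotides of HSPA1B moved from 0.10 to 0.33 and from 0.03 to 0.21. The H4C16 oligonucleotide at -0.01 was at 0.10 in that setting, 0.015 with no background correction, 0.018 with median centring, 0.011 with scaling between arrays and 0.029 in the authors' values. When 1 array was left out, the differences ran from -0.44 to 0.15 for RPL31, -0.24 to 0.10 for CD28, -0.13 to 0.19 for the second oligonucleotide of HSPA1B, -0.41 to 0.010 for CDC25C, -0.12 to 0.047 for CCNF, -0.14 to 0.58 for HSPA2, -0.997 to 0.20 for RPL7, -0.074 to 0.49, -0.059 to 0.30 and -0.21 to 0.19 for 3 oligonucleotides of H4C16, -0.012 to 0.68 for AURKB, -0.039 to 0.31 for EI24, -0.19 to 0.77 for TNFSF4, -0.63 to 0.069 for RAD54B, -0.57 to 0.25 for S100B, -0.014 to 0.66 for TIMP2, -0.34 to 0.84 for RET, -0.96 to 0.15 for UBB, -1.02 to 0.28 for PSMA2, -0.92 to 0.086 for B2M, -0.27 to 0.018 for the second oligonucleotide of KRT14, -0.13 to 0.15 for DNAJA1, -0.024 to 0.064 for the second oligonucleotide of CEACAM1, -0.081 to 0.17 for DNAJB1 and -0.12 to 0.23 for SERPINH1. Of the others, 40 moved by over 1.5 times when 1 array was left out and 33 by less. The cause was not tested.
Signal over background limits the dimmest oligonucleotides, whose ratios are drawn towards 0. The spread rests on 2 arrays a pulse type, and loess by print-tip group was not run, the spot blocks being unstated.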

Other observations

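The 31 oligonucleotides with an unadjusted p under 0.05 in limma also held genes outside the groups above. By their difference of the log2 ratio, those higher after ECT pulses were PPP1R3A, a glycogen-targeting subunit of protein phosphatase 1 (0.38), ALOX12, a lipoxygenase (0.35), WNT2, a secreted Wnt ligand (0.35), and POU2F3, a transcription factor of squamous epithelium (0.34). Lower after ECT pulses were HNF4G, a nuclear receptor (-0.38), CASQ1, the calcium store protein of muscle (-0.37), the zinc finger gene ZNF200 (-0.36) and TAF9B, related to a subunit of the transcription factor TFIID (-0.35). These genes were named after their values were seen, and none had an adjusted p under 0.05.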
